A study of Mus musculus with 20 samples.

Results

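The response of adipose tissue to loss of α4 was compared between 2 depots, inguinal white fat (iWAT) and interscapular brown fat (BAT), as an interaction of genotype and tissue, for each gene of the deposited table. The interaction is the log2 difference between Ai-α4KO and Control in BAT minus the same difference in iWAT. A positive value means that the gene rose more, or fell less, in BAT, and a negative value means the reverse. All 20 libraries of the series entered it, 5 in each of 4 groups (Control iWAT, Ai-α4KO iWAT, Control BAT and Ai-α4KO BAT), and the members described here are the 740 of 15230 tested genes for which the interaction was called at an adjusted p below 0.01. The mice were males on a mixed C57Bl/6 background. Ai-α4KO mice carried floxed alleles of Igbp1, the gene for α4, and a tamoxifen-inducible Cre driven by the adiponectin promoter, so recombination was directed to adipocytes, while the tissue that was sequenced also held other cells with intact alleles. Control mice had the floxed alleles without Cre according to the methods, and wild-type is the word in the labels. Both genotypes received 5 tamoxifen injections over 6 days from 2 months of age, and tissue was taken 1 week after recombination. Whether the same mice gave both tissues is not stated, nor is it stated that the libraries of a group came from separate mice, so p-values measure the spread between these libraries.

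α4 binds the catalytic subunits of protein phosphatase 2A and related phosphatases and protects them from degradation. Brown adipocytes burn fuel to make heat through UCP1, a proton channel of the inner mitochondrial membrane, and are packed with mitochondria. Inguinal white adipocytes mainly store triglyceride and can switch on a milder thermogenic program. Adipose tissue also houses macrophages, which clear dying adipocytes and multiply or enter the tissue after injury, and lymphocytes, which are denser in inguinal fat because a lymph node lies within it. In such bulk tissue, fewer cells of a type and less RNA per cell cannot be told apart.

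The targeted gene fell in both depots. Igbp1 (chrX:100494291-100516125 in mm10, the build of the table) was at 57.5, 69.9, 76.6, 67.5 and 64.7 CPM in Control iWAT, 10.7, 10.1, 11.1, 11 and 11 CPM in Ai-α4KO iWAT, 90.6, 105, 96.2, 92.6 and 85.4 CPM in Control BAT, and 14.3, 14.2, 17.4, 25.2 and 13.7 CPM in Ai-α4KO BAT. CPM is the read count scaled to a fixed library size after normalisation, and libraries are always listed in the order 1 to 5. The Ai-α4KO libraries lay below every Control library of their depot, and the log2 differences were -2.64 in iWAT and -2.47 in BAT. The interaction was 0.17 ± 0.19 (SE, adjusted p = 0.562, from the quasi-likelihood test of edgeR, adjusted by the method of Benjamini and Hochberg over all tested genes, as is every adjusted p that follows), with a 95% interval from -0.22 to 0.57.

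Between 24023371 and 50384446 reads were counted per library. Skeletal muscle markers summed to 89.0 to 350.4 CPM in 4 Control iWAT libraries and 11714 CPM in Control iWAT 4, and to 56.8 to 245 CPM in 4 Ai-α4KO iWAT libraries and 9963 CPM in Ai-α4KO iWAT 1. In BAT they ran from 1745 to 18250.4 CPM in Control and from 25744.5 to 92842.5 CPM in Ai-α4KO. B cell markers summed to 847 CPM in Control iWAT 1 and 363 CPM in Control iWAT 4, against 37.8 to 42.1 CPM in the other 3, 71.8 to 122.9 CPM in Ai-α4KO iWAT, 7.16 to 13.3 CPM in Control BAT and 47.6 to 84.1 CPM in Ai-α4KO BAT. T and NK cell markers likewise stood at 484 and 545 CPM in Control iWAT 1 and 4, and at 32.5 to 35.3 CPM in the other 3. Where leaving out Control iWAT 1 and 4 ended a call or moved a value most, the value without them is given too.

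**Figure D1:**
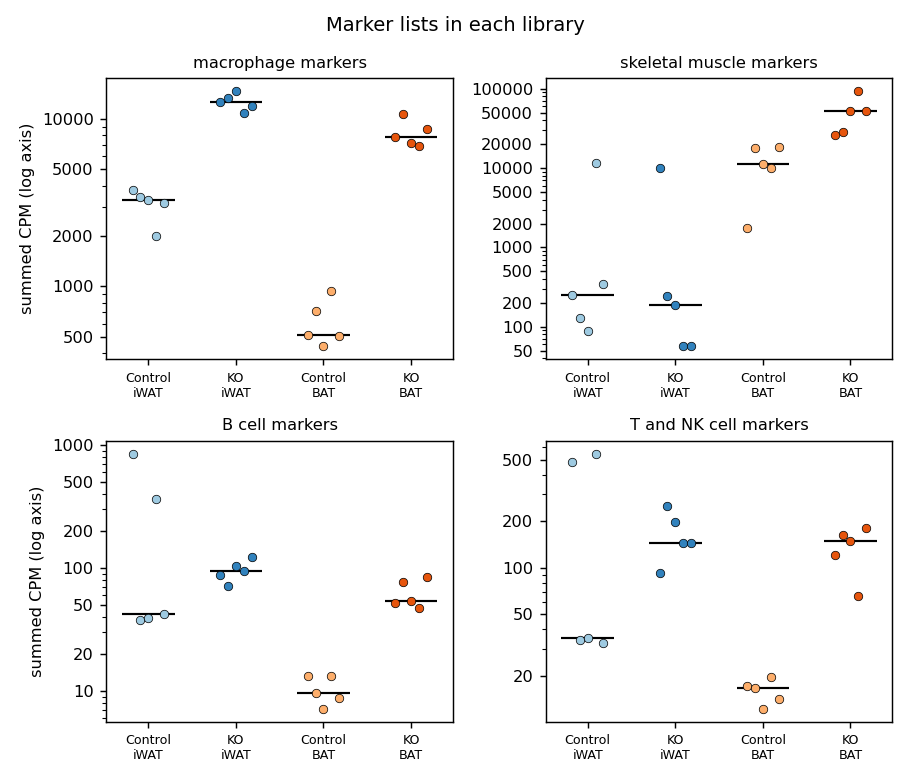
Summed CPM of 4 marker lists in each library (log axis), with 5 points per group and a line at the group median. Macrophage markers were higher in every Ai-α4KO library than in every Control library of either depot, while skeletal muscle markers stood apart in Control iWAT 4 and Ai-α4KO iWAT 1, and lymphocyte markers in Control iWAT 1 and 4.

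The interaction was called for 740 genes, 4.86% of those tested, with 496 positive (3.26%) and 244 negative (1.60%). For comparison, 6402 genes (42%) differed between genotypes in iWAT and 7500 (49.2%) in BAT at the same threshold in the same fit. The absolute interaction was at least 1 on the log2 scale for 584 of the 740 genes and at least 2 for 199. The median of the signed interaction over all tested genes was 0.01, and that of its absolute size 0.38. The split between signs depended on scaling: positive calls were 67.0% of the calls here, 81.0% with upper-quartile factors, 84.0% with library totals alone and 57.3% with factors computed within each depot. Library totals alone shifted the median of all genes to 0.12, and 570 of the 740 calls (458 positive and 112 negative) were kept under all 3 of these scalings, none with a changed sign. The count fell to 474 without Control BAT 3 and to 486 without Control BAT 1, with 309 and 322 positive calls, and positive calls rose to 853 without Ai-α4KO iWAT 1. Negative calls numbered 110, 95, 107 and 93 without Ai-α4KO iWAT 2, 3, 4 or 5, 114, 116, 103 and 109 without Ai-α4KO BAT 1, 2, 3 or 5, and 111 without Control iWAT 1, fits in which the median over all genes stood at 0.10 to 0.11. They numbered 155 without Control iWAT 4. Without Control iWAT 1 and 4 together 480 genes were called, of which 439 were among the 740, and 323 were called with the B cell marker level as a covariate, of which 302 were among them.

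**Figure D2:**
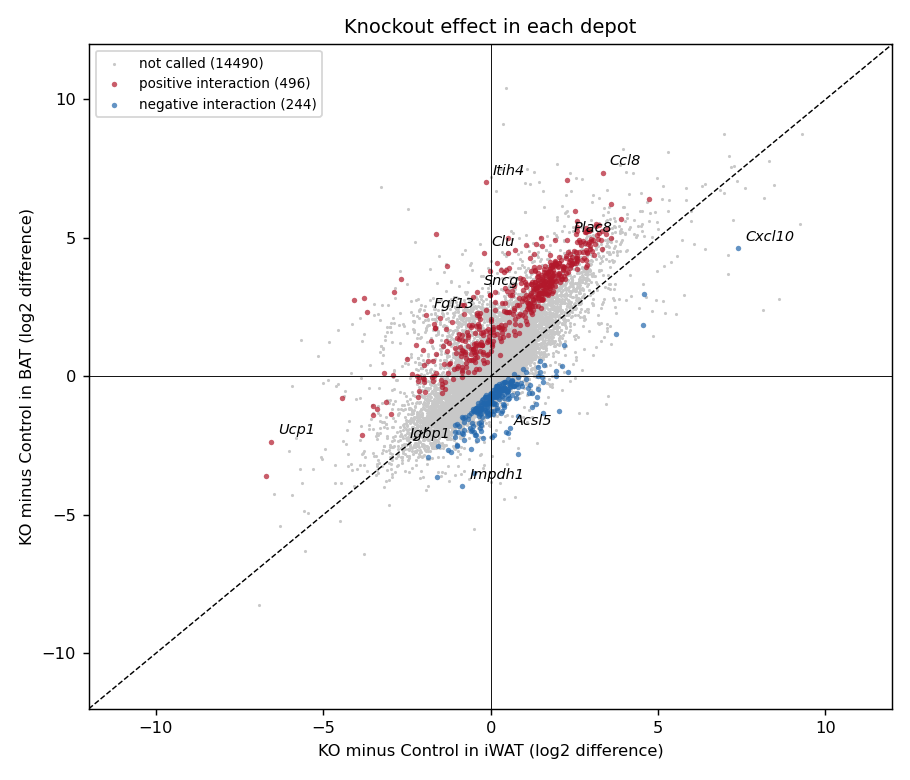
Log2 difference between Ai-α4KO and Control in iWAT (x axis) and in BAT (y axis) for the 15230 genes tested; red and blue points are the 496 positive and 244 negative interaction calls, grey points the genes not called, and the dashed line marks equal differences. Most red points lie in the upper right, above the dashed line, where genes rose in both depots and more in BAT, while the blue points cluster below zero on the y axis and near zero on the x axis.

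Most of the called genes did not reverse direction between depots. Judged by the knockout effect within each depot, 331 genes (44.7%) changed in the same direction in both, 269 (36.4%) passed the threshold in BAT alone, 93 (12.6%) in iWAT alone and 41 (5.54%) in both with opposite signs, and 6 passed in neither. The largest class comprised 277 genes that rose in both depots and more in BAT, with median log2 differences of 1.76 in iWAT and 3.63 in BAT. A further 137 genes rose in BAT without passing in iWAT (medians -0.10 and 1.77), and 132 fell in BAT without passing in iWAT (medians 0.01 and -0.96). Genes that fell in both depots with a larger fall in BAT numbered 39, and those with a larger fall in iWAT 9.

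The genes with the highest positive interactions included several that rose in BAT with no call in iWAT. Itih4 encodes an inter-alpha-trypsin inhibitor heavy chain, a plasma protein best known as an acute phase product of the liver, and had the highest interaction of all called genes. Itih4 (chr14:30886476-30901986) was at 1.44, 3.11, 3.31, 12 and 7.62 CPM in Control iWAT, 4.77, 11, 1.68, 5.46 and 1.76 CPM in Ai-α4KO iWAT, 1.64, 0.900, 2.18, 2.33 and 2.19 CPM in Control BAT, and 178, 271, 242, 226 and 283 CPM in Ai-α4KO BAT. The iWAT groups overlapped fully, whereas every Ai-α4KO BAT library was far above every other library. The interaction was 7.17 ± 0.77 (SE, adjusted p = 3.89e-05), made up of -0.15 in iWAT and 7.02 in BAT, and it lay between 5.59 and 7.79 in 38 alternative fits, each past the threshold.

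The promoter of Itih4 is shown because this gene had the largest interaction among the called genes. It is taken from RefSeq (GRCm38.p6, plus strand, chr14:30886226-30886525) and runs from 250 bases before the start of the transcript to 50 bases after it. Capitals mark the single match to TTCNNNGAA, the pattern that STAT transcription factors are known to bind. The pattern reads the same on both strands, but the middle bases of the match do not. The match begins 51 bases before the start.
Itih4: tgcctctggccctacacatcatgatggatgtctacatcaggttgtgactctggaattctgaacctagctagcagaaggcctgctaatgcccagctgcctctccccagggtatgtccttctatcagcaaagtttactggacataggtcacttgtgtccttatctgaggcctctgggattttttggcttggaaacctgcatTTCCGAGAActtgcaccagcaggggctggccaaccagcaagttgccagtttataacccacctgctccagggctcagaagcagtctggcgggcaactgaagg
The 8 called genes with the largest interactions of each sign were searched, among those with a mean of at least 1 CPM in every group. Of the 13 of these 16 with a promoter entry, Itih4 was the 1 with this motif, and 8.30% of all 32851 promoters of this length held it. The match describes the letters of this window only.

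Fgl1, a fibrinogen-related protein made mainly by hepatocytes, followed the same course at a lower level (chr8:41191434-41215156). It was at 1.89, 1.43, 2.63, 5.50 and 3.81 CPM in Control iWAT, 2.57, 5.36, 2.55, 2.47 and 2.10 CPM in Ai-α4KO iWAT, 1.37, 1.41, 0.680, 1.23 and 1.75 CPM in Control BAT, and 12.4, 17.0, 18.8, 21.2 and 20.8 CPM in Ai-α4KO BAT. All 5 Ai-α4KO BAT libraries exceeded the rest, and the interaction was 3.82 ± 0.48 (SE, adjusted p = 0.00018). Clu encodes clusterin, an extracellular chaperone (chr14:65968483-65981545), and was at 286, 34, 35.2, 156 and 28.5 CPM in Control iWAT, 150.2, 87.5, 58.4, 108 and 71.9 CPM in Ai-α4KO iWAT, 14.7, 29.8, 16.6, 23.6 and 21.6 CPM in Control BAT, and 539, 751, 287, 353 and 416 CPM in Ai-α4KO BAT. Its Control iWAT libraries ranged widely, with numbers 1 and 4 the highest, and the iWAT groups overlapped, while the BAT groups were fully apart (interaction 4.65 ± 0.76, SE, adjusted p = 0.0009). Without Control iWAT 1 and 4 the interaction of Clu was 3.02 (adjusted p = 0.000461), and the other 3 Control iWAT libraries lay below every Ai-α4KO iWAT library. It was 2.56 with the B cell marker level as a covariate and 2.52 with the muscle level added. Wfs1, an endoplasmic reticulum membrane protein, differed by -0.09 in iWAT and rose by 1.32 in BAT, with means of 26.7, 25.0, 28.8 and 71.6 CPM in Control iWAT, Ai-α4KO iWAT, Control BAT and Ai-α4KO BAT.

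Sncg and Psat1 also rose in BAT with no call in iWAT. Sncg encodes γ-synuclein, a protein enriched in white adipocytes and neurons (chr14:34370274-34374669), and was at 539, 311, 163, 256 and 354 CPM in Control iWAT, 271, 166, 190.4, 354 and 247 CPM in Ai-α4KO iWAT, 34.3, 37.5, 19.5, 23.2 and 36.5 CPM in Control BAT, and 286, 279, 230.5, 213 and 238 CPM in Ai-α4KO BAT. Control BAT stood apart from the other 3 groups, which overlapped, and the interaction was 3.45 ± 0.38 (SE, adjusted p = 5.34e-05). The BAT minus iWAT difference was -3.43 in Control and 0.02 in Ai-α4KO. Psat1, an enzyme of serine synthesis, rose in BAT (1.71) and not measurably in iWAT (0.08, adjusted p = 0.822), although its interaction (1.64 ± 0.37, SE) was lost without any one of 9 single libraries, with adjusted p up to 0.0172.

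Plac8 is an example of the largest class, which rose in both depots and more in BAT. Plac8, a small cysteine-rich protein of myeloid and lymphoid cells, had the lowest adjusted p among positive calls. Plac8 (chr5:100553733-100572205) was at 55.2, 38.4, 38.5, 39.2 and 51.2 CPM in Control iWAT, 249.7, 158, 284, 183 and 199 CPM in Ai-α4KO iWAT, 4.37, 3.83, 2.49, 5.11 and 3.94 CPM in Control BAT, and 145, 118, 140.1, 109.7 and 94.0 CPM in Ai-α4KO BAT. Control BAT was lowest, Control iWAT stood about an order of magnitude above it, and both Ai-α4KO groups lay above every Control library. The interaction was 2.67 ± 0.27 (SE, adjusted p = 3.44e-05), from 2.27 in iWAT and 4.94 in BAT. Clec12a is an inhibitory C-type lectin receptor of myeloid cells (chr6:129350244-129365303), and it was at 15.6, 14.9, 10.5, 12.5 and 11.7 CPM in Control iWAT, 75.8, 117, 140.1, 98.9 and 108 CPM in Ai-α4KO iWAT, 2.64, 3.60, 3.17, 3.77 and 3.07 CPM in Control BAT, and 88.4, 86.5, 112, 80.3 and 124 CPM in Ai-α4KO BAT. The Ai-α4KO groups overlapped although the Control groups did not, and the interaction was 1.87 ± 0.23 (SE, adjusted p = 0.000151). Sirpa, the receptor for CD47 on phagocytes, rose by 2.0 in iWAT and 3.67 in BAT, and Nxpe5, Tmem176b and Emp3 had interactions of 2.68, 1.47 and 1.40.

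Macrophage markers as a list moved the same way. Of 24 tested, 12 were called, all positive (against 3.26% of all genes), and all 24 had a positive value, with a median interaction of 1.66 against 0.01 over all genes. The called members included Cd68, a lysosomal glycoprotein of macrophages (2.15), the complement chains C1qa (1.96), C1qb (1.92) and C1qc (1.93), the high-affinity IgG receptor Fcgr1 (1.64) and lysozyme, Lyz2 (1.68). The mannose receptor Mrc1 (1.59 ± 0.40, SE, adjusted p = 0.0141), the haemoglobin scavenger receptor Cd163 (1.33 ± 0.50, adjusted p = 0.0788) and the chemokine receptor Ccr2 (1.26 ± 0.47, adjusted p = 0.0737) were not called. The summed level of the list was 3786, 3415, 3305, 2009 and 3173 CPM in Control iWAT and 12599.8, 13314, 14680.2, 10889.5 and 12010.4 CPM in Ai-α4KO iWAT. In BAT it was 513, 711, 439, 939 and 507 CPM in Control and 7774, 10654, 7204, 6923 and 8785 CPM in Ai-α4KO. Control BAT was lowest, and the Ai-α4KO BAT libraries stayed below every Ai-α4KO iWAT library. Between 10 and 13 markers were called when any single library was left out, and 11 without Control iWAT 1 and 4. The B cell covariate gave 8 (of 323 calls over all genes), and the test against a 1.5-fold change 4 (of 120). Limma gave 9 on log2(FPKM + 1) (of 534) and 13 on log2(FPKM + 0.1) (of 633). Genes of myeloid cells, among them Plac8, Clec12a and Sirpa, moved with this summed level, whose part in their interactions was not tested.

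The sign of these interactions depended on the scale. On the linear CPM scale, where absolute rather than relative rises are compared, 212 of the 496 positive genes (42.7%) had the opposite sign, including 10 of the 12 called macrophage markers, and 454 of the 496 were lower in BAT than in iWAT in Control. None of the 244 negative genes had the opposite sign. Lyz2 went from 820.0 ± 132 to 4914 ± 727 CPM in iWAT and from 179 ± 66.1 to 3433 ± 716 CPM in BAT (SD, n = 5), a larger fold in BAT and a larger gain in CPM in iWAT. Itih4, Fgl1, Clu and Sncg were positive on both scales, whereas Plac8 gained more CPM in iWAT.

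Among secreted signals, cytokines and chemokines had 7 positive calls and 1 negative call in 39 tested genes (against 3.26% and 1.60% of all genes), with a median of 1.29. The calls were 7 positive and 0 negative without Control iWAT 1 and 4, and 2 positive and 0 negative with the B cell marker level as a covariate. Over all genes, those fits called 480 and 323, against 740 in the main fit. DESeq2 called 16 positive and 1 negative, where 10.8% of all genes were called. Ccl8, a chemokine made by macrophages that attracts monocytes (chr11:82115185-82116799), was at 98.4, 157, 63.0, 46.1 and 60.1 CPM in Control iWAT, 537, 1238, 1062, 863 and 621 CPM in Ai-α4KO iWAT, 5.24, 8.14, 1.81, 4.94 and 1.35 CPM in Control BAT, and 504, 898, 525, 466 and 1143 CPM in Ai-α4KO BAT. The Ai-α4KO groups overlapped, and the Control groups differed by -4.30 (interaction 4.01 ± 0.62, SE, adjusted p = 0.000649). On the linear scale the sign turned for 5 of the list's 8 calls, including Ccl8. Ccl7 (1.68), Ccl12 (1.77) and Cxcl16 (1.77) were also called. Ccl7 lost the call without Control iWAT 5, Control BAT 4 or Control BAT 5, with adjusted p up to 0.0126. Reads of these neighbouring chemokine genes, which resemble each other, may have been divided between them. Il10, an anti-inflammatory cytokine, was called as well, but had 3 counts or fewer in each Control BAT library, so no fold is given. Ccl2, a monocyte attractant, rose by 6.40 in iWAT and 6.96 in BAT with an interaction of 0.56 ± 0.44 (SE, adjusted p = 0.403), and Cxcl12 (-0.34) and Cxcl13 (1.87) were not called either.

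Acute phase proteins gave 3 calls in 19 tested genes, all positive (against 3.26% of all genes), and a median of 1.94. The count was 7 without Control iWAT 1 and 5 without Control iWAT 3, Ai-α4KO iWAT 2 or Ai-α4KO BAT 4. DESeq2, which called 10.8% of all genes, called 8, all positive. Besides Itih4 the 3 calls by edgeR were ceruloplasmin, Cp (1.59 ± 0.22, SE), and the protease inhibitor Serpina3n (chr12:104406708-104414329). Serpina3n was at 271, 387, 284, 312 and 404 CPM in Control iWAT, 745, 1278, 784, 845 and 444 CPM in Ai-α4KO iWAT, 13.6, 10.5, 9.06, 20.1 and 25.0 CPM in Control BAT, and 466, 609, 268, 146 and 186 CPM in Ai-α4KO BAT. It rose in both depots, from a Control BAT level far below Control iWAT (interaction 3.12 ± 0.51, SE, adjusted p = 0.000925), and its sign turned on the linear scale. Serpina3n has close paralogs in the same cluster, between which reads may have been divided. The abundant members C3, Hp and Steap4 were not called (0.07, 0.14 and 0.52). Haptoglobin, Hp, rose in iWAT (1.64) and BAT (1.78), and the 95% interval of the difference ran from -0.61 to 0.89.

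The negative interactions had another shape. All 244 genes were higher in Control BAT than in Control iWAT, and the most frequent pattern was a fall in BAT with no call in iWAT. Impdh1, an IMP dehydrogenase that catalyses the rate-limiting step of guanine nucleotide synthesis, had the lowest adjusted p and the largest size among genes with at least 1 CPM in every group (chr6:29200437-29216364). It was at 45.7, 36, 39, 36.9 and 34.5 CPM in Control iWAT, 32.5, 18.4, 18.6, 18.8 and 18.3 CPM in Ai-α4KO iWAT, 399.9, 320.0, 403, 614 and 574 CPM in Control BAT, and 42, 34.8, 22.9, 21.3 and 28.3 CPM in Ai-α4KO BAT. Control BAT was about an order of magnitude above the rest, the Ai-α4KO groups overlapped, and Ai-α4KO iWAT 1 lay above the other 4 libraries of its group. The log2 difference was -0.85 in iWAT and -3.95 in BAT (interaction -3.10 ± 0.30, SE, adjusted p = 3.44e-05). Rnf152, a ubiquitin ligase of the lysosome that restrains amino acid signaling to mTORC1 (chr1:105276917-105356710), was at 4.30, 11.1, 12.6, 5.32 and 4.92 CPM in Control iWAT, 3.37, 4.56, 4.91, 7.11 and 7.11 CPM in Ai-α4KO iWAT, 133, 145, 134, 141 and 104 CPM in Control BAT, and 10.8, 8.34, 11.8, 11.1 and 16.4 CPM in Ai-α4KO BAT. The iWAT groups overlapped, and the Ai-α4KO BAT libraries came down to the level of iWAT or slightly above it (interaction -3.00 ± 0.40, SE, adjusted p = 0.000233). Acsl5, which activates long-chain fatty acids by joining them to coenzyme A (chr19:55253369-55296628), was at 111, 133, 154, 108 and 100.2 CPM in Control iWAT, 142, 174, 185, 159.8 and 176 CPM in Ai-α4KO iWAT, 1014, 783, 1280.0, 631 and 446 CPM in Control BAT, and 190.3, 194, 213, 201 and 226 CPM in Ai-α4KO BAT. The log2 difference was -2.02 in BAT and 0.46 in iWAT, where the adjusted p was 0.0574 (interaction -2.48 ± 0.29, SE, adjusted p = 9.88e-05).

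Other negative genes moved less. Pmm2, a phosphomannomutase needed for protein glycosylation (chr16:8637707-8657524), was at 46.4, 44.8, 52.1, 47.5 and 48.5 CPM in Control iWAT, 49.3, 48.5, 49.2, 47.3 and 44.8 CPM in Ai-α4KO iWAT, 86.9, 85.8, 94.8, 83.6 and 81.4 CPM in Control BAT, and 49.2, 49.9, 42, 46.8 and 49.7 CPM in Ai-α4KO BAT. The other groups were level and Control BAT stood above them (interaction -0.86 ± 0.10, SE, adjusted p = 9.88e-05). The RNA-binding protein gene Zcchc2 (-1.32), the sialyltransferase St6galnac6 (-1.51), the BRCA1-binding protein Brap (-0.81) and the phospholipid enzyme Cds1 (-1.44) were among the 12 negative genes with the lowest p. So was Ssfa2 (-1.34). All 5 fell in BAT. In iWAT Zcchc2 rose (0.51, adjusted p = 0.000247), and the iWAT libraries of Brap did not overlap between genotypes either (-0.17, adjusted p = 0.0782). 4930506M07Rik rose in iWAT (2.30) and not measurably in BAT (0.17, adjusted p = 0.353). Adrbk2, a kinase that desensitizes β-adrenergic and other receptors, fell in BAT (-1.43) and rose in iWAT (0.83).

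**Figure D3:**
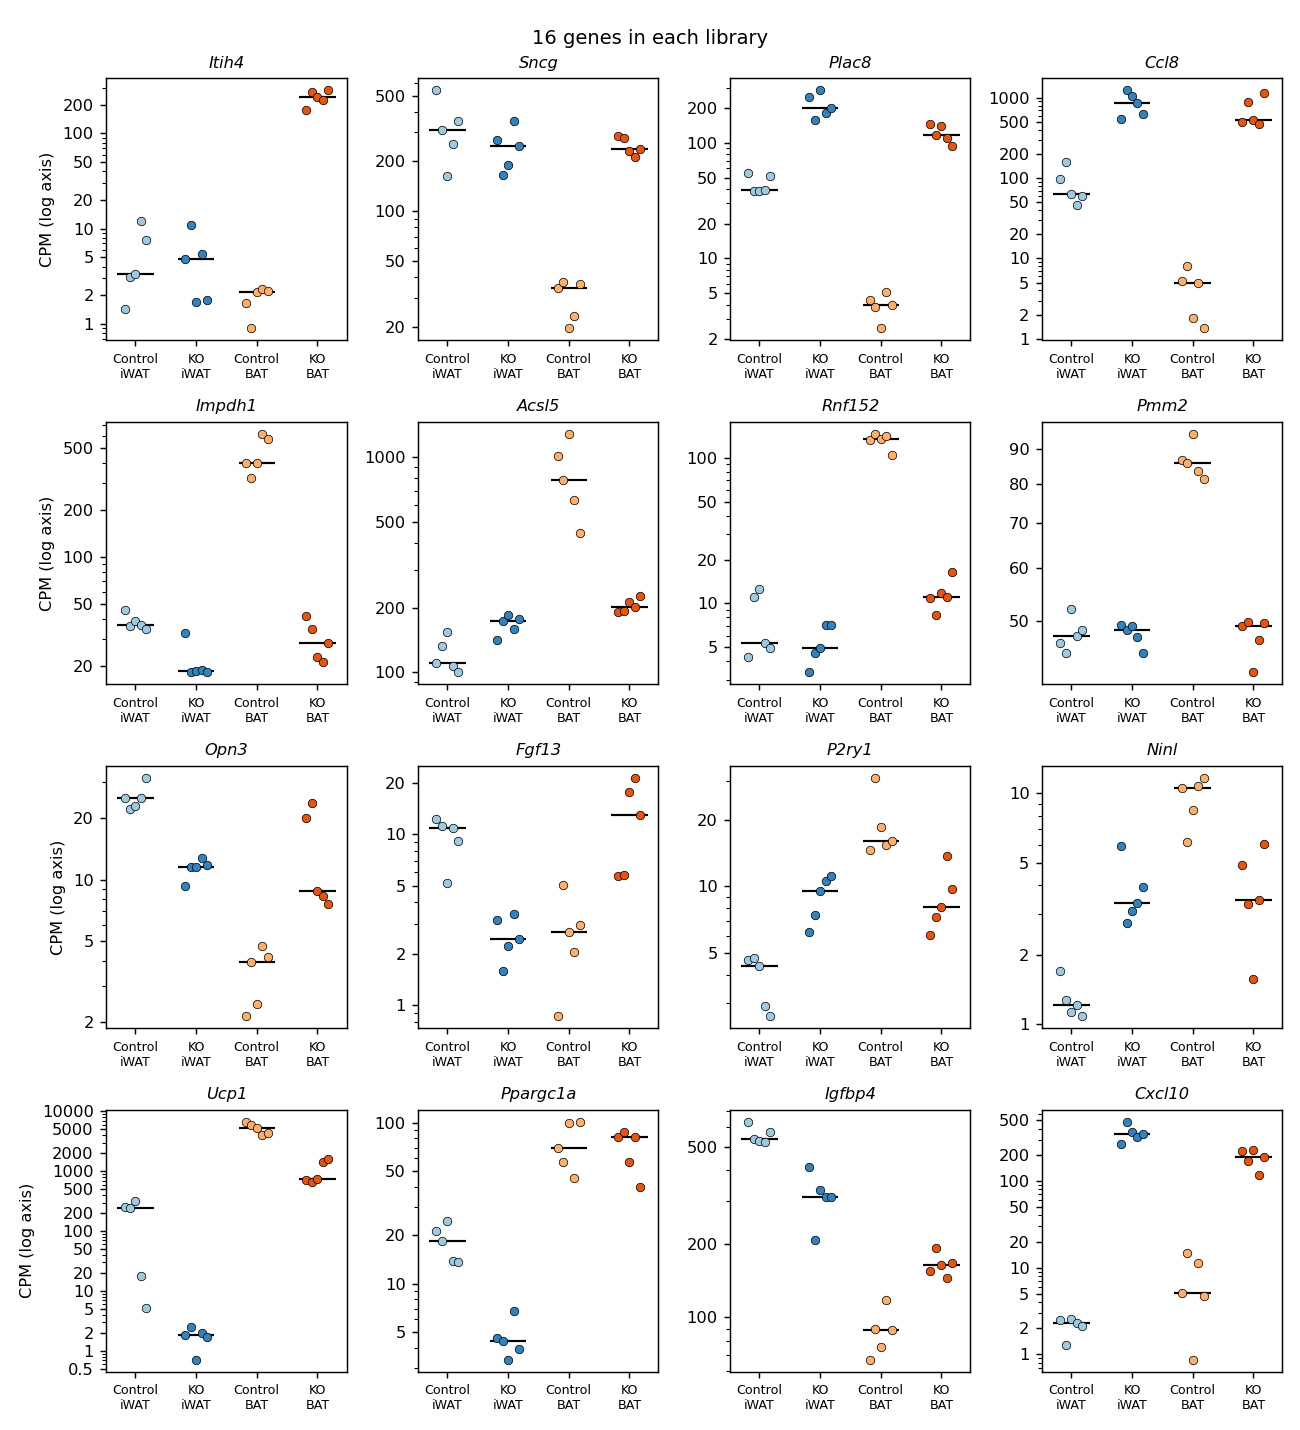
CPM of 16 genes in each library (log axis, scale set for each panel), with 5 points per group in the order of library number and a line at the median. Itih4 is high in Ai-α4KO BAT alone, Impdh1, Acsl5, Rnf152 and Pmm2 are high in Control BAT alone, and Opn3, Fgf13, P2ry1 and Ninl change in opposite directions in the depots.

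Of the 41 genes past the threshold in both depots with opposite signs, 12 had a difference of at least 2-fold in each. The gene Opn3 encodes encephalopsin, a non-visual opsin (chr1:175662421-175692632), and was at 25.0, 22.3, 22.8, 25.2 and 31.5 CPM in Control iWAT, 9.29, 11.5, 11.5, 12.7 and 11.7 CPM in Ai-α4KO iWAT, 2.14, 3.95, 2.45, 4.73 and 4.18 CPM in Control BAT, and 20.1, 23.7, 8.81, 8.27 and 7.59 CPM in Ai-α4KO BAT. It fell in iWAT (-1.16) and rose in BAT (1.97), with no overlap between genotypes in either depot, and Ai-α4KO BAT 1 and 2 were well above 3 to 5 (interaction 3.13 ± 0.41, SE, adjusted p = 0.000237). Fgf13, an intracellular regulator of sodium channels (chrX:59062146-59585572), was at 12.3, 11.2, 5.18, 10.9 and 9.09 CPM in Control iWAT, 3.14, 1.60, 2.23, 3.40 and 2.44 CPM in Ai-α4KO iWAT, 0.865, 5.05, 2.67, 2.05 and 2.95 CPM in Control BAT, and 5.67, 5.78, 17.7, 21.3 and 13.0 CPM in Ai-α4KO BAT. There Ai-α4KO BAT 1 and 2 were the lower pair of the group (interaction 4.14 ± 0.59, SE, adjusted p = 0.000333). The galactosyltransferase B3galt1 (-1.66 in iWAT, 1.75 in BAT), Lgi1 (-1.65, 1.73), thrombopoietin, Thpo (-1.79, 1.29), the homeobox gene Hoxd9 (-1.26, 1.19) and 0610009L18Rik (-1.34, 1.27) fell in iWAT and rose in BAT as well. Hoxd9 lost the interaction call without Control BAT 1 (adjusted p = 0.0115). Of the 12 genes, 7 overlapped between genotypes in BAT, namely 0610009L18Rik, Alb, B3galt1, Hoxd9, Lgi1, Otof and Thpo, and 2 of these, Alb and Hoxd9, in iWAT as well. Albumin, Alb, met the rule too (5.95), but it was at 9.62, 19.8, 11.9, 113 and 61.7 CPM in Control iWAT, 8.60, 3.69, 3.68, 9.90 and 3.14 CPM in Ai-α4KO iWAT, 0.637, 0.117, 0.136, 0.459 and 0.677 CPM in Control BAT, and 0.624, 0.134, 7.11, 2.03 and 7.34 CPM in Ai-α4KO BAT, and the call was lost without Control BAT 3 (adjusted p = 0.011).

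The other 4 rose in iWAT and fell in BAT. P2ry1, a receptor for extracellular ADP (chr3:61002785-61008982), was at 4.64, 4.75, 4.39, 2.89 and 2.61 CPM in Control iWAT, 6.23, 7.47, 9.56, 10.6 and 11.1 CPM in Ai-α4KO iWAT, 14.6, 30.8, 18.5, 15.4 and 16.1 CPM in Control BAT, and 6.02, 7.27, 8.09, 13.7 and 9.70 CPM in Ai-α4KO BAT. The Ai-α4KO groups met at about the same level, from a Control difference of 2.31 to one of -0.01 in Ai-α4KO (interaction -2.31 ± 0.36, SE, adjusted p = 0.000714). Ninl, a centrosomal protein that anchors microtubules (chr2:150934519-151009398), was at 1.69, 1.27, 1.13, 1.22 and 1.08 CPM in Control iWAT, 5.91, 2.76, 3.10, 3.35 and 3.92 CPM in Ai-α4KO iWAT, 10.6, 6.18, 8.47, 10.7 and 11.7 CPM in Control BAT, and 4.88, 3.32, 1.57, 3.44 and 6.04 CPM in Ai-α4KO BAT. The depot difference went from 2.89 to 0.02 (interaction -2.87 ± 0.42, SE, adjusted p = 0.000367). The serine/threonine kinase Pim1 (1.35 in iWAT, -1.01 in BAT) and otoferlin, Otof (2.05, -1.25), had the same pattern, with Otof at 1.06 CPM or less on average in every group. Gmnn, geminin, which blocks the licensing of DNA replication (chr13:24751845-24761937), reversed with a fall in BAT of less than 2-fold. It was at 5.80, 8.39, 10.1, 8.19 and 6.68 CPM in Control iWAT, 12.3, 21.6, 24.3, 18 and 26.8 CPM in Ai-α4KO iWAT, 34, 32.8, 42.8, 38.9 and 39.2 CPM in Control BAT, and 18.2, 17.7, 26.5, 24.7 and 23.8 CPM in Ai-α4KO BAT. Genotypes did not overlap in either depot, and the Ai-α4KO groups overlapped with each other (interaction -2.16 ± 0.26, SE, adjusted p = 0.000151). Igfbp4, a binding protein for insulin-like growth factors (chr11:99041260-99052643), reversed the other way and was at 632, 539, 526, 522 and 573 CPM in Control iWAT, 414, 208, 332, 312 and 310.2 CPM in Ai-α4KO iWAT, 67.0, 89.6, 75.7, 118 and 88.8 CPM in Control BAT, and 155, 192, 164, 144 and 167 CPM in Ai-α4KO BAT. Its difference was -0.82 in iWAT and 0.91 in BAT (interaction 1.73 ± 0.23, SE, adjusted p = 0.000233).

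The genes of the thermogenic program had median log2 differences of -1.69 in iWAT and -1.47 in BAT. Of 31 tested, 3 interactions were called, all positive (against 3.26% of all genes), and the median interaction was -0.18, which turned to 0.15 without Control iWAT 1 and 4, so no direction is given for the list. Other fits also gave negative calls, with 8 positive and 3 negative by DESeq2 and 1 positive and 3 negative by limma on log2(FPKM + 1). There were 6 positive calls without Control iWAT 5, and 0 calls when tested against a 1.5-fold change. DESeq2 called 10.8% of all genes, this limma fit 4.26%, and the 1.5-fold test 120 genes in all. Ucp1 (chr8:83290348-83298456) was at 255, 240.4, 314, 18 and 5.13 CPM in Control iWAT, 1.86, 2.53, 0.709, 1.95 and 1.69 CPM in Ai-α4KO iWAT, 6674, 5947, 5288, 4095 and 4325 CPM in Control BAT, and 706, 657, 755, 1400.3 and 1629 CPM in Ai-α4KO BAT. Both genotype comparisons were free of overlap, although Control iWAT 4 and 5 were more than an order of magnitude below Control iWAT 1 to 3. The log2 difference was -6.57 in iWAT and -2.35 in BAT, and the interaction of 4.21 ± 0.99 (SE, adjusted p = 0.00882) was near the threshold. It was lost without any one of 15 single libraries (adjusted p up to 0.018) and had an adjusted p of 0.192 by limma on log2(FPKM + 1). On the linear scale the sign turned, since mean Ucp1 fell from 5266 to 1029.6 CPM in BAT and from 166 to 1.75 CPM in iWAT.

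Ppargc1a, the coactivator that drives mitochondrial biogenesis (chr5:51454249-51553921), was at 21.3, 18.5, 24.5, 13.9 and 13.6 CPM in Control iWAT, 4.57, 4.42, 3.36, 6.73 and 3.94 CPM in Ai-α4KO iWAT, 70.1, 57.3, 99.2, 45.2 and 101 CPM in Control BAT, and 81.5, 87.6, 56.6, 81.8 and 39.7 CPM in Ai-α4KO BAT. It fell in iWAT (-1.99) and the BAT groups overlapped (-0.10, adjusted p = 0.739), with an interaction of 1.89 ± 0.36 (SE, adjusted p = 0.00266). Cox7a1, a cytochrome c oxidase subunit of heart, muscle and brown fat, fell in iWAT (-3.50) and differed by -1.05 in BAT (adjusted p = 0.0172). Its interaction (2.44 ± 0.52, SE, adjusted p = 0.00509) was lost without Control BAT 3 or 5 (adjusted p up to 0.0111) and with the skeletal muscle marker level as a covariate (2.37, adjusted p = 0.0103). Muscle markers were higher in every Ai-α4KO BAT library than in any Control BAT library, and their part in this result was not tested further. The lipid droplet protein gene Cidea had an interaction of 2.33 ± 0.63 (SE, adjusted p = 0.0193) and was not called, and neither were Cpt1b (-0.88) and Slc36a2 (-0.10).

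The adipocyte marker list, by comparison, gave 1 call (Sncg) in 27 tested genes (3.70%, against 4.86% of all genes), with median log2 differences of -1.63 in iWAT and -1.60 in BAT and a median interaction of 0.27. Oxidative phosphorylation subunits gave 2 calls in 80 (2.5%), Cox7a1 and Atp5g3, a subunit of the ATP synthase rotor that rose in BAT (0.87) and differed by -0.43 in iWAT (interaction 1.30 ± 0.21, SE, adjusted p = 0.000868). The abundant subunits Atp5a1 and Atp5b fell in both depots, with interactions of -0.21 and -0.14. In insulin signaling the call was Pik3cb, a catalytic subunit of phosphoinositide 3-kinase, which fell in iWAT (-1.37) and not measurably in BAT (-0.20, adjusted p = 0.301), with 1 call in 24 tested genes (4.17%) and a median of -0.03, or 0.08 without Control iWAT 1 and 4. By edgeR, none of these 3 shares exceeded that of all genes. DESeq2, which called 10.8% of all genes, called 5 adipocyte markers, 3 oxidative phosphorylation subunits and 3 insulin signaling genes. Limma called 2, 2 and 3 on log2(FPKM + 1) (4.26% of all genes) and on log2(FPKM + 0.1) (5.05%).

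Cxcl10 and Rsad2, both induced by interferon, rose further in iWAT. Cxcl10, an interferon-induced ligand of CXCR3, a chemokine receptor of T cells (chr5:92346639-92348889), was at 2.46, 1.27, 2.52, 2.29 and 2.14 CPM in Control iWAT, 265, 482, 365, 324 and 349.9 CPM in Ai-α4KO iWAT, 5.14, 14.9, 0.861, 11.2 and 4.74 CPM in Control BAT, and 220.1, 169, 226, 117 and 189 CPM in Ai-α4KO BAT. Every Ai-α4KO library was far above every Control library in both depots, and the log2 difference was 7.38 in iWAT and 4.63 in BAT. The interaction (-2.75 ± 0.61, SE, adjusted p = 0.00627) was lost without any one of 15 single libraries (adjusted p up to 0.0139). Rsad2, viperin, an antiviral enzyme (chr12:26442743-26456452), was at 16.6, 24.1, 24.4, 24.2 and 29.3 CPM in Control iWAT, 323, 761, 728, 524 and 520.4 CPM in Ai-α4KO iWAT, 47.6, 39.2, 43.3, 79.1 and 69.1 CPM in Control BAT, and 518, 478, 553, 243 and 388 CPM in Ai-α4KO BAT. It rose in both depots (4.59 and 2.97), Control BAT was above Control iWAT, and the Ai-α4KO groups overlapped. Its interaction (-1.62 ± 0.36, SE, adjusted p = 0.00634) was lost without any one of 12 single libraries (adjusted p up to 0.0203), and it was the 1 call, a negative one, among 26 interferon-stimulated genes (3.85%, against 4.86% of all genes), whose median was 0.15. The interferon-stimulated genes Bst2 and Gbp2 rose in both depots, with interactions of 0.20 and 0.01.

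Among p53 targets, 2 of 21 were called (9.52%, against 4.86% of all genes), 1 in each direction. The cyclin-dependent kinase inhibitor Cdkn1a rose in iWAT (1.57) and not measurably in BAT (-0.19, adjusted p = 0.582), from mean levels of 76.5 CPM in Control iWAT and 252 CPM in Control BAT to 227 and 220.4 CPM in Ai-α4KO. Its interaction (-1.76 ± 0.42, SE, adjusted p = 0.00922) was lost without any one of 17 single libraries (adjusted p up to 0.0243). The proapoptotic BH3 gene Pmaip1 rose by a larger fold in BAT (3.19 and 5.11), and lost its call without any one of 4 libraries (adjusted p up to 0.0129). Its sign turned on the linear scale. In the integrated stress response, with 2 calls in 26 (7.69%), Psat1 and Ddit3, the gene Ddit3, which encodes the transcription factor CHOP, fell in BAT (-0.72) and not measurably in iWAT (0.10), and its interaction (-0.82 ± 0.16, SE, adjusted p = 0.00286) was lost without any one of 7 libraries (adjusted p up to 0.0138). Atf4 rose in both depots (0.81 and 0.84), with an interaction of 0.03 ± 0.22 (SE). Among NRF2 targets, 2 of 22 were called (9.09%), namely heme oxygenase, Hmox1 (1.66 ± 0.31, SE, adjusted p = 0.00234), and the quinone reductase Nqo1 (1.52 ± 0.35, SE, adjusted p = 0.00768). Both rose in both depots and by a larger fold in BAT, and Nqo1 lost its call without any one of 7 libraries (adjusted p up to 0.0159). On the linear scale the sign turned for 1 of the 2.

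Markers of other cells gave few calls by edgeR, to be read against the 4.86% of all genes called. DESeq2, which called 10.8% of all genes, called 4 neutrophil, 2 Schwann cell, 3 stromal and 10 B cell markers. Limma on log2(FPKM + 1), which called 4.26% of all genes, called 0, 1, 0 and 0 of these. In that fit 11 neutrophil and 8 B cell markers were tested. By edgeR, neutrophil markers gave 1 in 14 (the decoy interleukin receptor Il1r2, 2.30 ± 0.55, SE, adjusted p = 0.00966) with a median of 1.67, Schwann cell markers 1 in 12 (the myelin protein Pmp22, 1.48 ± 0.35, SE, adjusted p = 0.0098) with a median of 1.26, and stromal markers 1 in 20 (Thy1, a surface glycoprotein, 1.52 ± 0.34, SE, adjusted p = 0.0068) with a median of 0.68. Thy1 was at 1.11 without Control iWAT 1 and 4 and at 0.911 with the B cell marker level as a covariate. Il1r2 was lost without any one of 15 libraries, Pmp22 of 16 and Thy1 of 5, with adjusted p up to 0.0211, 0.021 and 0.0157. The sign of Il1r2 turned on the linear scale. Among developmental patterning genes, 2 of 31 were called with a median of 0.60: Hoxd9 and Tbx15, a T-box factor that rose in BAT (2.0) and not measurably in iWAT (0.01), whose call was lost without any one of 11 libraries (adjusted p up to 0.0187). B cell markers gave 2 positive calls in 17 (against 3.26% of all genes), the receptors Cd22 (6.76 ± 1.40, SE) and Cd37 (2.91 ± 0.57, SE), and Cd22 lost its call without Control BAT 3 (adjusted p = 0.0104) and was at 2.63 without Control iWAT 1 and 4. Cd37 was at 2.01 without those 2 libraries and at 1.58 with the B cell marker level as a covariate, where Cd22 was not called (1.72, adjusted p = 0.0823). Both genes belong to the list from which that covariate was computed, so their values under it are not independent of it. The B cell list had 6 calls without any one of Control iWAT 2, 3 and 5, and 1 without Control BAT 3. All 17 were positive, with a median of 4.31 that fell to 0.47 without Control iWAT 1 and 4. For all 22 T and NK cell markers the value was positive as well, with a median of 3.65 and of 0.92 without those libraries.

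Without Control iWAT 1 and 4, the calls of 0610009L18Rik, Cdkn1a, Cxcl10, Ddit3, Hoxd9, Nqo1, Pmaip1, Psat1, Rsad2, Tbx15 and Thy1 were lost (adjusted p from 0.0111 to 0.0423), while their log2 interactions were 72.9% (Thy1) to 109% (Psat1) of those from all libraries. With the skeletal muscle marker level as a covariate, 0610009L18Rik, Alb, Cd22, Cdkn1a, Cox7a1, Il1r2, Nqo1, Pmaip1, Pmp22, Psat1, Rsad2, Tbx15 and Thy1 were not called (0.0103 to 0.028), at 84% (Alb) to 104% (Il1r2 and Pmaip1) of those sizes. With the B cell marker level, those of 0610009L18Rik, Alb, Ccl12, Ccl7, Cd22, Cdkn1a, Cxcl10, Cxcl16, Ddit3, Hoxd9, Il1r2, Nqo1, Phkg1, Pmaip1, Pmp22, Psat1, Rsad2, Tbx15, Thy1 and Ucp1 were lost (0.0104 to 0.0823). There the log2 interactions of Cd22, Thy1, Cxcl16 and Pmaip1 were 25.4%, 59.9%, 63.3% and 68.4% of those without the covariate, and the other 16 were between 90.1% (Rsad2) and 117% (Pmp22). Cd22 is itself a member of the list behind this covariate. Among the genes given in full above, Itih4, Fgl1, Clu, Sncg, Impdh1, Rnf152, Acsl5, Pmm2, Opn3 and Fgf13 kept their calls in all 3 of these fits.

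For 13 lists edgeR gave no call, which is not evidence that their members responded alike. They were fatty acid synthesis (21 tested, 7 at an unadjusted p below 0.05), cholesterol synthesis (23, 2), the citrate cycle (23, 5), fatty acid oxidation (22, 8), glycolysis (20, 6), the protein phosphatase 2A family (11, 1), the cell cycle (29, 6), UCP1-independent cycles (15, 5), T and NK cells (22, 19), skeletal muscle (33, 5), endothelium (16, 8), epithelium (8, 2) and collagens (39, 13), where 31% of all genes had an unadjusted p below 0.05. DESeq2, which called 10.8% of all genes, called 4, 0, 2, 1, 3, 1, 1, 3, 15, 0, 0, 1 and 4 of them in that order. For T and NK cells edgeR called 4 without Control iWAT 2, 8 without Control iWAT 3, 6 without Control iWAT 5 and 2 with upper-quartile factors or library totals. By limma on log2(FPKM + 1), which called 4.26% of all genes, fatty acid synthesis, the citrate cycle and glycolysis had 1 call each and the other 10 had 0, and on log2(FPKM + 0.1), where 5.05% of all genes were called, fatty acid synthesis had 2 and the citrate cycle, fatty acid oxidation and glycolysis 1 each. Fatty acid oxidation had a median of -0.38 (-0.10 without Control iWAT 1 and 4), with 19 of 22 values negative, and median log2 differences of -1.48 in iWAT and -1.95 in BAT. Fatty acid synthesis had a median of 0.68, with 16 of 21 values positive, and fatty acid synthase, Fasn, was at -4.26 and -3.22 (interaction 1.04 ± 0.47, SE, adjusted p = 0.143). Cell cycle genes had medians of 2.43 and 2.51 in the depots. In the phosphatase family, whose catalytic subunits α4 binds, the most abundant members Ppp2ca, Ppp2r1a and Ppp2r4 had interactions of -0.22 ± 0.16, -0.19 ± 0.14 and -0.09 ± 0.18 (SE). Skeletal muscle markers had a median of 2.02 that turned to -1.88 without Control iWAT 1 and 4, so no direction is given for them.

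**Figure D4:**
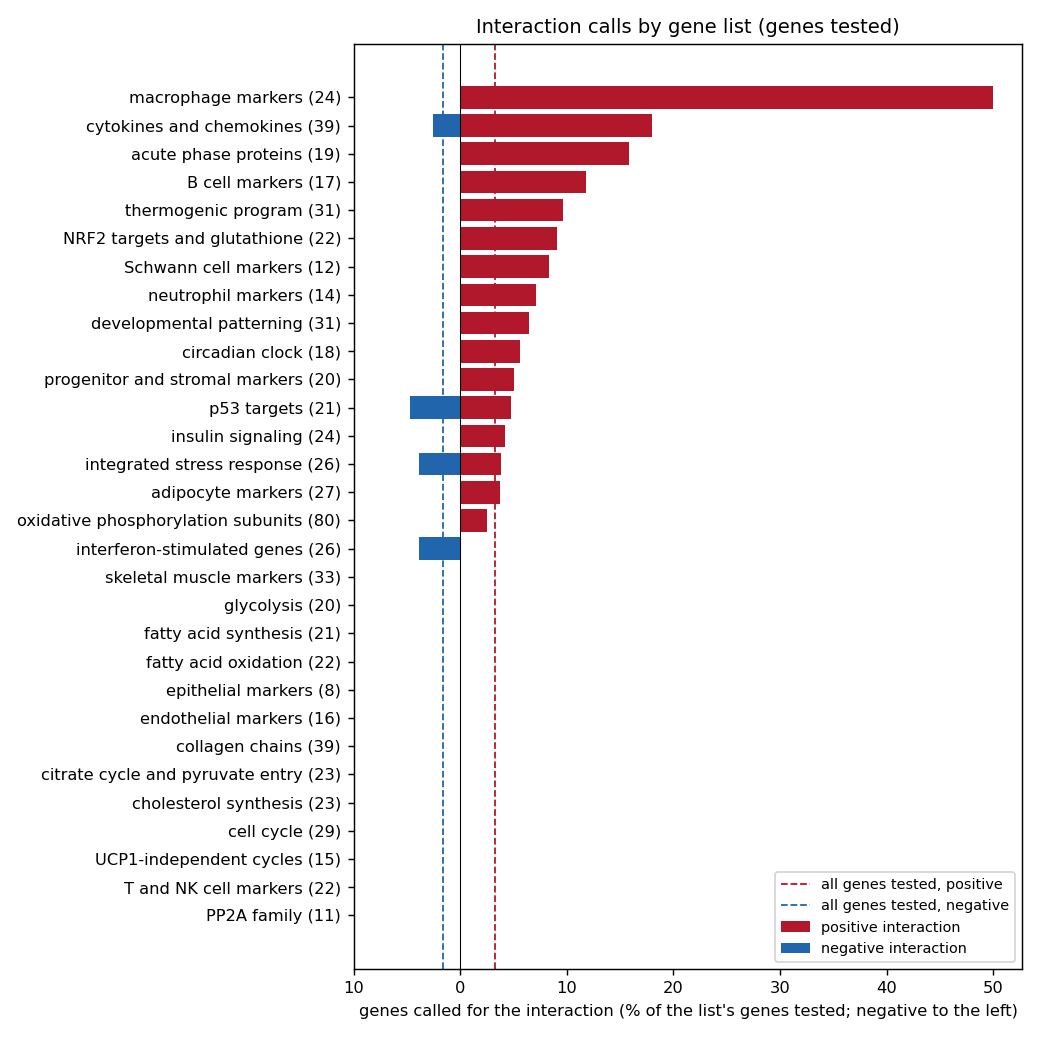
Percent of each gene list's tested members with a called interaction (x axis), positive to the right and negative to the left, with dashed lines at the share over all 15230 genes (3.26% positive and 1.60% negative). Macrophage markers had the highest share, 12 of 24, all positive, and 13 lists had no call.

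The same interactions can be read as a change in the difference between depots. The gap between BAT and iWAT was smaller in Ai-α4KO than in Control for 626 of the 740 called genes (84.6%), against 9195 of all 15230 (60.4%), and its median absolute size went from 1.83 to 0.541 on the log2 scale among called genes and from 0.519 to 0.402 among all. Gap and interaction were computed from the same libraries, so the share among called genes is a description. Of the 496 positive genes, 454 were lower in Control BAT than in Control iWAT, and 412 had a smaller gap in Ai-α4KO, 343 with the sign kept and 69 with the sign changed. Of the 244 negative genes, all higher in Control BAT, 214 had a smaller gap, 108 with the sign kept and 106 with the sign changed. The share with a smaller gap was between 67.5% and 89.7% when single libraries were left out. For macrophage markers the median depot difference went from -2.44 in Control to -0.55 in Ai-α4KO. For the thermogenic program it went from 2.73 to 2.20, and for oxidative phosphorylation subunits it was 1.47 and 1.53. Genes such as Itih4 (from -1.57 to 5.60), Ucp1 (from 4.98 to 9.20) and Ppargc1a (from 2.02 to 3.91) were among the exceptions, in which the depots were farther apart in Ai-α4KO. Phkg1, the muscle form of a phosphorylase kinase subunit, was another (from 0.47 to 4.09), and it was highest in the same libraries as the skeletal muscle markers, Control iWAT 4 (48.0 CPM), Ai-α4KO iWAT 1 (14.1 CPM) and Ai-α4KO BAT 4 (248 CPM). Its interaction was 3.62 ± 0.76 (SE, adjusted p = 0.00471), 2.73 with the muscle marker level as a covariate, and lost without Control BAT 3 (adjusted p = 0.0104).

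**Figure D5:**
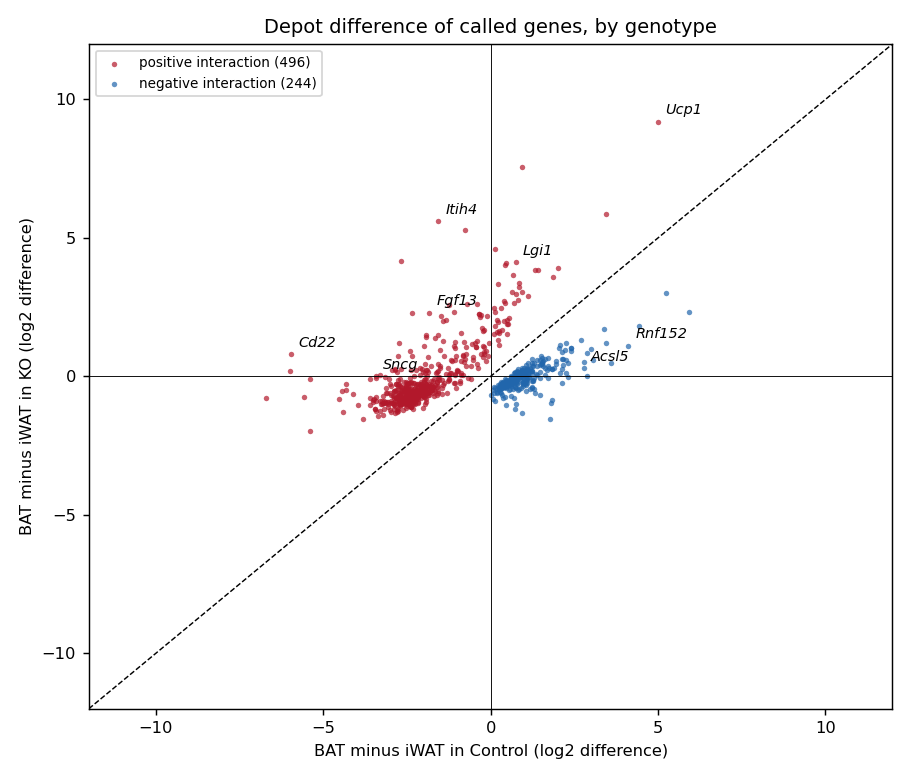
Log2 difference between BAT and iWAT in Control (x axis) and in Ai-α4KO (y axis) for the 740 called genes, with the 496 positive calls in red, the 244 negative calls in blue and a dashed line where the depot difference is equal in both genotypes. The blue points begin right of zero and most red points left of zero on the x axis, and 626 of the 740 called genes lie nearer to zero on the y axis than on the x axis.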

How the data were processed

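Polyadenylated RNA was sequenced as stranded paired reads of 150 bp. According to the methods and the submitters' processing notes, the authors used bcl2fastq 2, aligned reads with STAR 2.5.3a and used the mm10 build; the counting tool and annotation are not given in the sources used here. The authors deposited, per gene and library, expected counts (76.6% of nonzero values were whole) and FPKM values for 25219 genes, none of them mitochondrially encoded. Expected counts were rounded and tested with edgeR 4.0.16 (R 4.3.3): genes were filtered by expression within groups (filterByExpr), scaled by TMM, and fitted with 1 coefficient per group by quasi-likelihood over all 20 libraries; 15230 genes entered, and calls were made at an adjusted p below 0.01. CPM values use the same factors. Alternatives were DESeq2 1.42.0, limma 3.58.1 on log2(FPKM + 1) and log2(FPKM + 0.1) for genes above 1 FPKM in at least 5 libraries, other scalings, filters and thresholds, a block of the library number, marker covariates and libraries left out. Scripts were tested on simulated data.

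Named genes were Igbp1, the 12 of lowest p and the 8 of largest difference of each sign (the latter at 1 CPM or more in every group), all with opposite effects of at least 2-fold, and per list up to 6 called members and the 3 most abundant not called. Phosphatase, pathway and marker lists (30) and the members were chosen with earlier results of these data known. Of the genes this rule picks, 3 are not reported here. No library was left out of the main comparison.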

Additional observations from a re-analysis of the deposited data

Results flagged for a closer look

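In 112 groups of 5 libraries, from 24 genes and 4 marker lists, 5 had 1 library far from the others by Dixon's criterion, where chance gives about 1 in 20. Ai-α4KO iWAT 2 was at 5.36 CPM for Fgl1, against a group median of 2.55 CPM. Ai-α4KO iWAT 1 was at 32.5 CPM for Impdh1, against 18.6 CPM. Control BAT 2 was at 30.8 CPM for P2ry1, against 16.1 CPM. Skeletal muscle markers summed to 11714 CPM in Control iWAT 4, against a group median of 249.97 CPM, and to 9963 CPM in Ai-α4KO iWAT 1, against 189 CPM. These libraries were kept, and the interactions of Fgl1, Impdh1 and P2ry1 held in every fit that left out a single library.

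The knockout effect differed between depots for 740 genes by the test of the interaction. In 12 of them the effects had opposite signs with at least 2-fold in each depot, and the interactions were 2.61 for 0610009L18Rik, 5.95 for Alb, 3.41 for B3galt1, 4.14 for Fgf13, 2.45 for Hoxd9, 3.38 for Lgi1, -2.87 for Ninl, 3.13 for Opn3, -3.30 for Otof, -2.31 for P2ry1, -2.36 for Pim1 and 3.08 for Thpo. The libraries overlapped between genotypes in BAT for 7 of the 12 (0610009L18Rik, Alb, B3galt1, Hoxd9, Lgi1, Otof and Thpo), and in iWAT as well for Alb and Hoxd9.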

How the results depend on the processing

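No call that was also made by another test changed sign. Of 72 called genes picked by the naming rule, 40 kept the call in every alternative that tested them (35 for Otof, 36 for Lgi1 and 38 for the others), 32 lost it in at least 1 and 18 lost it without some single library. Of the 740 calls, 570 were kept under all 3 other scalings, 368 in each of the 20 fits without 1 library, 272 under the muscle and B cell covariates each alone, and 258 in all 25 of these. DESeq2 gave 1648 calls (1257 positive, 391 negative, gap smaller in 80.0%). Upper-quartile factors gave 147 negative calls, and library totals 115 (gap smaller in 81.2%). Scaling within each depot gave 78.6% with a smaller gap. No filter gave 130 negative calls, and at least 10 counts in every library 127 (81.3%). A threshold of 0.05 gave 2297 calls (1432 positive, 865 negative, 77.0%). A 2-fold minimum gave 112 negative calls. Testing against a 1.5-fold change gave 120 calls (96 positive, 24 negative, 92.5%). Limma gave 150 negative calls with log2(FPKM + 1) (69.9%) and 137 with log2(FPKM + 0.1) (80.1%). The muscle covariate gave 137 negative calls (89.7%), the B cell covariate 323 calls (221 positive, 102 negative, 89.5%). Without Control iWAT 1 and 4 there were 480 calls (68 negative, 88.5%). Chosen after seeing the data, the fit also without Ai-α4KO iWAT 1 and Ai-α4KO BAT 4 gave 66 negative calls (75.6%), and both covariates together gave 365 calls (284 positive, 81 negative, 90.4%). On the linear CPM scale 284 of the called genes had a positive and 456 a negative difference. Leaving out single libraries gave 474 to 1019 calls, 309 to 853 positive and 93 to 264 negative, with 67.5% to 89.7% having a smaller gap.

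Whether same-numbered iWAT and BAT libraries came from 1 mouse is not given in the sources used here. The numbers were not treated as pairs, since not every pair correlated above 0.1: correlations of same-numbered iWAT and BAT libraries' deviations from their group means ran from -0.0808 to 0.221 in Control and from -0.265 to 0.244 in Ai-α4KO. Summed circadian clock genes were nevertheless highest in numbers 4 and 5 of Control in both depots (1438 and 1503 CPM against 713 to 960.1 in iWAT, 1537 and 1692 against 1110.0 to 1329 in BAT). A block of the number gave 534 calls (gap smaller in 89.7%), and a block of genotype and number 517 (150 negative, 89.9%). The latter gave 5 macrophage markers, 6 acute phase proteins and 1 positive and 3 negative thermogenic genes, and both blocks lost the calls of Alb, Ccl7, Cd22, Cox7a1, Cxcl10, Hoxd9, Pmaip1, Psat1, Rsad2 and Ucp1. Phkg1 was lost with the number alone, and 0610009L18Rik, C1qb, Ddit3 and Thy1 with genotype and number. With 5 libraries per group, small differences in genes near the count filter may have been missed, which was not tested. Marker levels of B cells, T cells and skeletal muscle varied widely between iWAT libraries of 1 group.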
